A study of Mus musculus with 2 samples.

Results

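The neurotrophin system of the aged hippocampus was described through 7 genes, chosen by symbol. They were the ligand genes Bdnf and Ntf3, the Trk receptor genes Ntrk2 and Ntrk3, the p75 receptor gene Ngfr, and the sorting receptor genes Sort1 and Sorcs2. All 7 were found among the 55536 genes of the annotation, of which 22028 are protein-coding, and they have 53 annotated transcripts. The study measured total RNA by sequencing in hippocampal tissue of male mice of the hybrid strain B6CASTF1/J, an F1 cross, aged 18 to 20 months and obtained from The Jackson Laboratory. The source label reads layer of hippocampus tissue, without naming a layer. There was 1 group of 2 libraries, each from 300 ng of RNA, with no treatment and no second age, sex or strain. The labels number the libraries as biological replicates 1 and 2 but give both the same donor record and do not say that they came from separate animals, so the SDs below measure the spread between these samples only.

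Neurotrophins are secreted as precursors that proteases cut to the mature growth factor. Mature BDNF binds TrkB, the product of Ntrk2, and mature NT-3 binds TrkC, the product of Ntrk3; both are receptor tyrosine kinases that support neuronal survival and synaptic plasticity. The precursors bind p75, the product of Ngfr, together with sortilin or SorCS2, and this pairing is known for pro-apoptotic and synapse-weakening signals. Trk genes also make truncated receptors without the kinase domain, which bind ligand but do not signal through that kinase; in brain, truncated TrkB is best known from astrocytes.

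The libraries held 34563482 expected counts over genes in replicate 1 and 32370292 in replicate 2. Levels are given in TPM, a transcript's share of all transcripts after correction for its length, scaled to a fixed total. The small RNAs 7SL and 7SK took 35.4% of all TPM in replicate 1 and 35.7% in replicate 2, which lowers the TPM of every other gene alike. Neuronal, astrocytic, oligodendrocytic and hippocampal field markers were all detected, and their summed levels differed by 1.09-fold at most between the libraries. The 4 choroid plexus markers, of which 3 were detected and Ttr was highest, summed to 36.04 TPM in replicate 1 and 690.52 TPM in replicate 2, a 19.2-fold difference. The 2 libraries differed by more than counting noise (chi-square per degree of freedom 7.79 over 19837 genes) and were kept as 2 samples.

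The sorting receptor and Trk receptor genes stood above the ligand genes, and the p75 receptor gene Ngfr below them. Sort1, which encodes sortilin, had 150.66 TPM in replicate 1 and 159.59 TPM in replicate 2. Ntrk2 had 131.24 and 142.80 TPM, and Ntrk3 had 76.78 and 72.13 TPM. These 3 genes ranked 427th, 517th and 1198th among the protein-coding genes by mean TPM. Sorcs2 had 16.15 and 17.92 TPM. Bdnf had 13.04 and 13.16 TPM, from 1273 and 1184 counts. Both lay far below the Trk genes and within 1.5-fold of each other. Ntf3 had 4.82 and 4.41 TPM, from 151 and 127 counts, and Ngfr had 0.70 and 0.74 TPM, from 59 and 57 counts. Ngfr was the only member under a TPM of 1, the level taken here as detected when reached in both libraries; in the second of the authors' quantifications, which runs on a higher scale, it had 1.07 and 1.11 TPM.

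**Figure D1:**
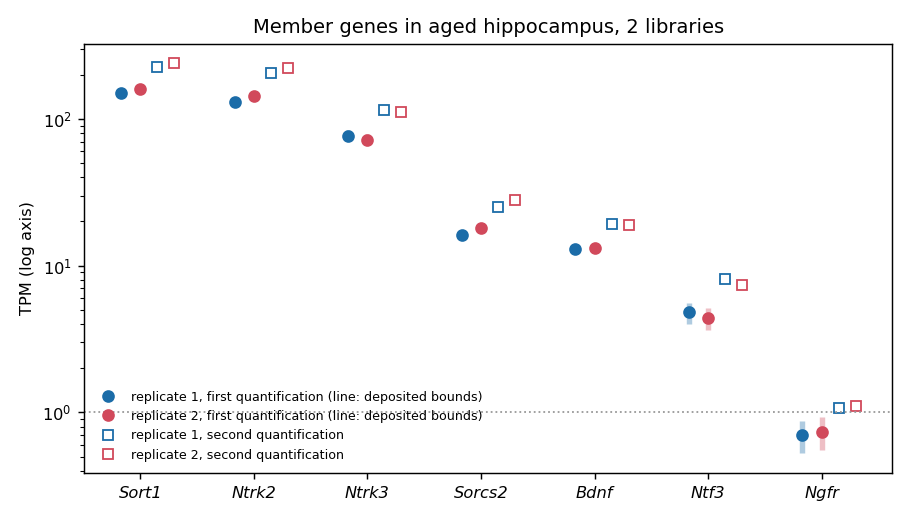
TPM of the 7 member genes on a log axis, ordered by mean level; filled circles are the first quantification with the authors' deposited bounds as lines, open squares the second quantification, blue replicate 1 and red replicate 2, and the dotted line a TPM of 1. The order from Sort1 to Ngfr is the same in both libraries and both quantifications, which differ in scale.

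As means over the 2 libraries, the levels were 155 ± 6.31 TPM for Sort1, 137 ± 8.17 TPM for Ntrk2, 74.5 ± 3.29 TPM for Ntrk3, 17.0 ± 1.25 TPM for Sorcs2, 13.1 ± 0.0849 TPM for Bdnf, 4.62 ± 0.290 TPM for Ntf3 and 0.720 ± 0.0283 TPM for Ngfr (SD, n = 2 each). No pair of neighbours in this order overlapped in its library values, and each mean log2 ratio was more than 2 SDs from 0. The nearest neighbours were Sort1 over Ntrk2, with a ratio of 1.13 ± 0.0215, and Sorcs2 over Bdnf, with 1.30 ± 0.0871 (SD, n = 2 each). With 2 libraries of 1 group no test was made, since the smallest p an exact two-sided sign-flip test can give is 0.5. In bulk tissue, fewer cells of a type and less RNA per cell cannot be told apart.

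Each Trk receptor gene, with all its transcripts summed, was far more abundant in RNA than the gene of its preferred ligand. Ntrk2 exceeded Bdnf 10.1-fold in replicate 1 and 10.9-fold in replicate 2, a mean of 10.5 ± 0.556 (SD, n = 2). Ntrk3 exceeded Ntf3 15.9-fold and 16.4-fold, a mean of 16.1 ± 0.302 (SD, n = 2). These sums include truncated forms and, for Ntrk3, non-coding or fragment transcripts. The full-length forms alone had 55.1 ± 2.87 TPM for Ntrk2 and 32.4 ± 0.113 TPM for Ntrk3 (SD, n = 2 each), still above Bdnf and Ntf3. Ntrk2 exceeded Ntrk3 1.71-fold in replicate 1 and 1.98-fold in replicate 2. In TPM the balance of the 2 Trk genes thus moved more between the libraries than either receptor-to-ligand ratio. In counts scaled between the libraries it did not. There the log2 ratio of replicate 2 over replicate 1 was 0.064 for Ntrk2, -0.027 for Ntrk3, -0.034 for Bdnf and -0.178 for Ntf3. Non-coding or fragment transcripts of Ntrk3 had 18.91 TPM in replicate 1 and 15.29 TPM in replicate 2, and its full-length transcripts 32.30 and 32.46 TPM.

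Relatives of the members put these levels in their families. Bdnf exceeded Ntf3 2.71-fold in replicate 1 and 2.98-fold in replicate 2, and Ntf5, the gene of neurotrophin-4/5, had 2 and 5 counts. Among the 5 genes of the VPS10P sorting receptor family, Sort1 held 58.5% ± 0.454 of the summed TPM, ahead of Sorl1 with 28.5% ± 0.471, and Sorcs2 held 6.42% ± 0.261 (SD, n = 2 each). Sorcs2 had 4.20 ± 0.243 times the TPM of Sorcs1 and 1.27 ± 0.106 times that of Sorcs3 (SD, n = 2 each).

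The forms of Ntrk2 differ in their last coding exons. Ntrk2 (ENSMUSG00000055254.15) lies on chr13:58806569-59133970 of mm10, plus strand. All forms shown share the same coding exons up to the part just inside the membrane and then part ways. The sequences are given because these ends decide which receptor is made. Lower case marks the last 30 bases of the shared exon and capitals mark the coding bases that follow, up to and including the stop codon in the truncated forms and for the first 60 bases in the full-length form. The capitals lie at chr13:58985802-58985861 for the full-length form, at chr13:58932023-58932060 for the form of 476 codons and at chr13:58878339-58878424 for the form of 492 codons.
Ntrk2 full-length: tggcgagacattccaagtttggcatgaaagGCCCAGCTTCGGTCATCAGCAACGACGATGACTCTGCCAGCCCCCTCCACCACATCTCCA
Ntrk2 truncated, 476 codons: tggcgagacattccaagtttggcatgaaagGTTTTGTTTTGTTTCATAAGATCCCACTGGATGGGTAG
Ntrk2 truncated, 492 codons: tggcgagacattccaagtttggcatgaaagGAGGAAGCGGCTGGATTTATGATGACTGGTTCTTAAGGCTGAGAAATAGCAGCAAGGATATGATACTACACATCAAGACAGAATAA

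The form of 476 codons, the receptor known as TrkB.T1, has a private coding end of only 38 bases including its stop. Full-length Ntrk2, with 821 codons and the kinase domain, is annotated with a long 3′ end in Ntrk2-201 and a shorter one in Ntrk2-207. The truncated form of 476 codons likewise has a long version, Ntrk2-202, and a shorter one, Ntrk2-204. In both forms the long and the shorter version also start at different annotated first exons.

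Truncated Ntrk2 RNA outweighed full-length RNA in TPM. The full-length transcripts summed to 53.03 TPM in replicate 1 and 57.09 TPM in replicate 2. Those of the 476-codon form summed to 61.95 and 69.71 TPM. The ranges of the 2 forms did not overlap, and full-length over the 476-codon form was 0.837 ± 0.0262 (SD, n = 2). Over all truncated forms together it was 0.685 ± 0.0117 (SD, n = 2). Ntrk2-205, the form of 492 codons, added 12.90 and 13.35 TPM, or 9.83% and 9.35% of the gene's TPM, but 4.63% and 3.36% in the second quantification. The forms of 466 and 489 codons had 1.23 TPM at most. The full-length share of all Ntrk2 TPM was 40.4% and 40.0%, a mean of 40.2% ± 0.305, and the truncated share 58.7% ± 0.554 (SD, n = 2 each). In reads, which are not corrected for length, full-length and truncated transcripts were near even. Full-length transcripts took 50.4% ± 0.110 of the expected counts and all truncated ones 49.3% ± 0.0344 (SD, n = 2 each). Against the 476-codon form alone the order turned round, with 1.11 times its counts. In the long and in the shorter version alike, the full-length transcript is longer than that of 476 codons. The second quantification gave a full-length over 476-codon ratio of 0.860 ± 0.0130 in TPM (SD, n = 2).

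Among single transcripts, Ntrk2-202 was highest, with 45.39 and 47.67 TPM, followed by Ntrk2-201 with 37.41 and 41.22 TPM. Ntrk2-204 had 16.56 and 22.04 TPM and Ntrk2-207 had 15.62 and 15.87 TPM. Ntrk2-204 differed most between the libraries, and its deposited bounds, 12.9 to 19.1 TPM in replicate 1 and 17.7 to 24.3 TPM in replicate 2, overlapped. The version with the long 3′ end held 71.4% ± 1.17 of full-length TPM and 70.8% ± 3.45 of 476-codon TPM (SD, n = 2 each), which is the same share within the spread. Since the versions also differ in their first exons, these are shares of annotated transcripts and not of 3′ ends alone.

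**Figure D2:**
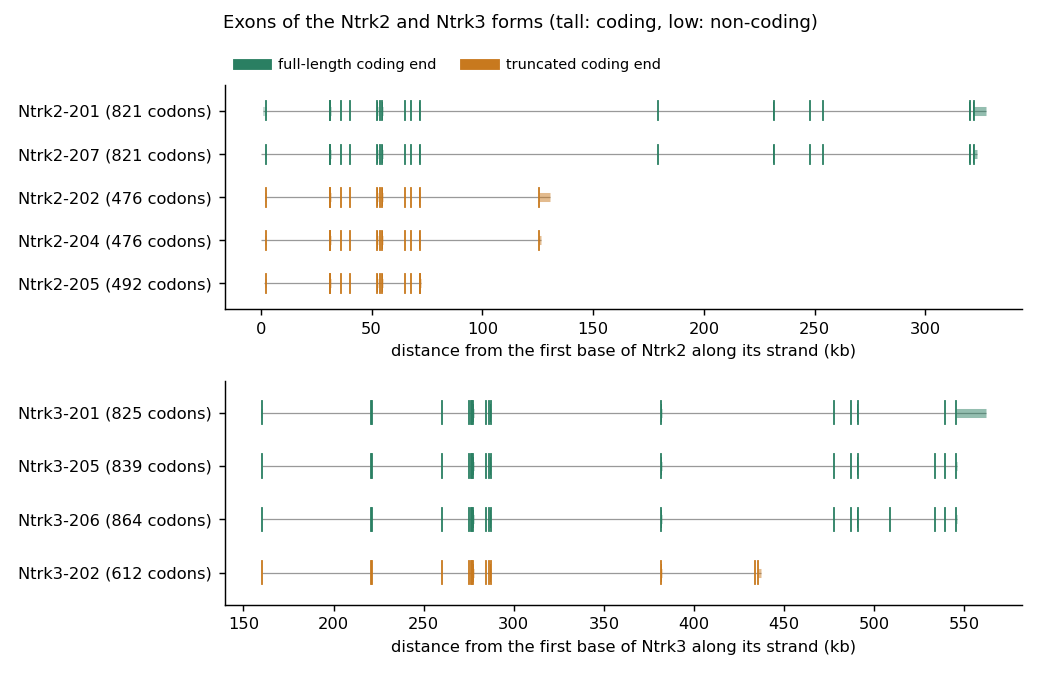
Exons of the named Ntrk2 and Ntrk3 transcripts, drawn as distance in kb from the first base of each gene along its strand; tall marks are coding exons, widened for sight, low bars non-coding parts, green the full-length and orange the truncated coding end. The truncated forms end within the intron that full-length transcripts remove, and Ntrk3-201 carries by far the longest last exon.

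Ntrk3 (ENSMUSG00000059146.12) lies on chr7:78175959-78738012 of mm10, minus strand. Its truncated form of 612 codons, Ntrk3-202, leaves the full-length path after the exon that precedes the kinase domain. Of the full-length transcripts, Ntrk3-201 has 825 codons; Ntrk3-205 has 839, with an extra exon of 42 bases; and Ntrk3-206 has 864, with that exon and another of 75 bases. Inserts of this kind within the kinase domain are known, from work in rat, to change how TrkC signals. Neither exon breaks the reading frame or holds a stop codon in frame. In the sequences, written along the minus strand, lower case marks bases of the neighbouring exons and capitals mark the private coding bases. The capitals are at chr7:78260355-78260414 for the full-length path, at chr7:78304292-78304426 and chr7:78302629-78302747 for the truncated form, and at chr7:78204103-78204144 for the exon of 42 bases.
Ntrk3 full-length: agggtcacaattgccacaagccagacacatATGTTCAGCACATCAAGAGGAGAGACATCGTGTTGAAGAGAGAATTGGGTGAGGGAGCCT
Ntrk3 truncated, 612 codons: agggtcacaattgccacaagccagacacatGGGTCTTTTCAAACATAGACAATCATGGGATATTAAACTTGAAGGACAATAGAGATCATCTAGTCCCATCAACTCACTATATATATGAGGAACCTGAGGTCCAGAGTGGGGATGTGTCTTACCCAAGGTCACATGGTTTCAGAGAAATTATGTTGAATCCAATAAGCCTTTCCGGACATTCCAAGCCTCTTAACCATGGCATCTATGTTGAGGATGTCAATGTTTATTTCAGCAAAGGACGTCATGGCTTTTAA
Ntrk3 exon of 42 bases: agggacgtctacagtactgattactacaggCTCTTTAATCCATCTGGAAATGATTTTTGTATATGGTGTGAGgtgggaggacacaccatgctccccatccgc

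In contrast to Ntrk2, full-length Ntrk3 RNA exceeded the truncated form. Full-length transcripts summed to 32.30 TPM in replicate 1 and 32.46 TPM in replicate 2, and Ntrk3-202 had 25.57 and 24.39 TPM. The ratio of full-length over truncated was 1.30 ± 0.0479 (SD, n = 2) and above 1 in both libraries, while that of Ntrk2 was below 1 in both. The full-length share of all Ntrk3 TPM was 42.1% and 45.0%, a mean of 43.5% ± 2.07, with 33.6% ± 0.358 truncated and 22.9% ± 2.43 in 15 transcripts that are non-coding or fragments (SD, n = 2 each). Over transcripts with a complete coding end alone, the full-length share was 54.5%. In expected counts the full-length share was 78.0% ± 1.20 (SD, n = 2), 3.94 times the truncated form, and Ntrk3-201, which has a last exon of 16786 bases, took 8391 and 8091 counts by itself. Over protein-coding transcripts, the second quantification gave a full-length over truncated ratio of 1.24 ± 0.0703 in TPM (SD, n = 2).

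The full-length transcripts of Ntrk3 were split between those with and without the extra exons. Ntrk3-201 had 17.05 and 17.89 TPM, Ntrk3-205 had 13.08 and 12.03 TPM, and Ntrk3-206 had 2.17 and 2.54 TPM. Transcripts with the exon of 42 bases thus held 46.0% ± 1.65 of full-length TPM, and 42.0% ± 1.09 in the second quantification (SD, n = 2 each). In expected counts they held 10.2% ± 0.598 (SD, n = 2). Ntrk3-205 and Ntrk3-206 are annotated with last exons of 338 and 365 bases, so reads from the long 3′ end of Ntrk3-201 cannot be assigned to them. Ntrk3-201 is also the only one of the 3 without the exon of 42 bases. The shares in TPM are therefore shares of annotated transcripts that differ in their 3′ ends too, and not of the exon alone. Transcripts with the exon of 75 bases held 7.27% ± 0.783 of full-length TPM, against 16.4% ± 0.342 in the second quantification (SD, n = 2 each).

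Short annotated fragments of Ntrk3 were the least certain. Ntrk3-220, a processed transcript of 435 bases, had 10.81 and 8.71 TPM from 91.14 and 67.52 expected counts, but 5.97 and 1.11 TPM in the second quantification. Ntrk3-214, a fragment of 426 bases singled out after its values were seen, went the other way, with 0.69 and 2.62 TPM in the first and 14.9 and 18.4 TPM in the second. Ntrk3-208, of 4386 bases and annotated for nonsense-mediated decay, has only 60 annotated codons. It has the full-length stop codon and so counts as full-length by the rule used. It was at 0 in the first quantification and at 1.28 and 0.637 TPM in the second. Not being annotated as protein-coding, it is left out of the full-length over truncated ratio and of the extra-exon shares.

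**Figure D3:**
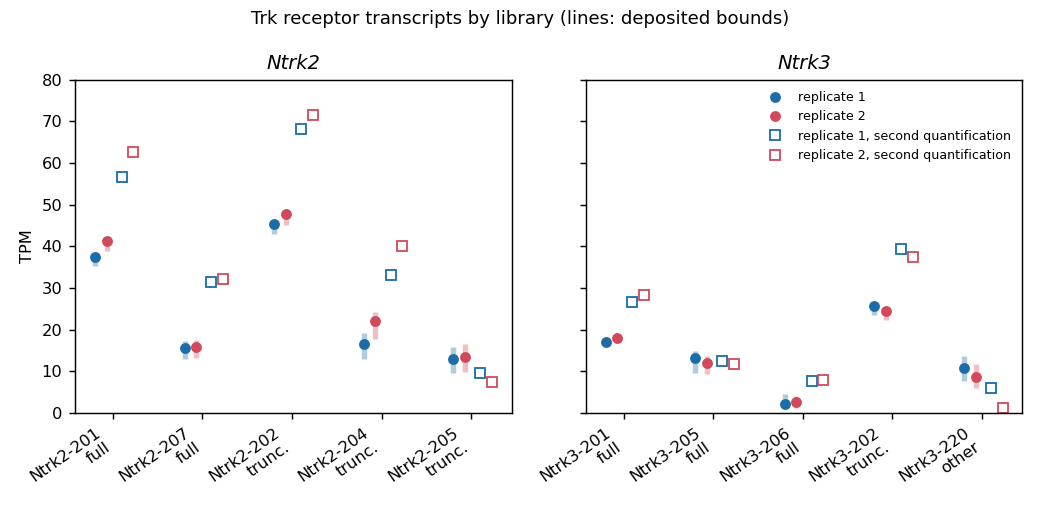
TPM of the named Ntrk2 transcripts (left) and Ntrk3 transcripts (right) in each library; filled circles with lines are the first quantification and the authors' deposited bounds, open squares the second quantification, with the kind of coding end under each name. Ntrk2-202 is the highest Ntrk2 transcript and Ntrk3-202 the highest Ntrk3 transcript in both libraries and both quantifications.

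Bdnf (ENSMUSG00000048482.14) lies on chr2:109674700-109727007 of mm10, plus strand. Its 11 annotated transcripts start at 8 different first exons, each with its own promoter, and all end in the same last exon at chr2:109723382-109727007, which holds the coding sequence of the shared precursor. Transcription from the promoter of the fourth first exon, exon IV, is known to follow neuronal activity through the factor CREB. By position, the first exon 4 lies at chr2:109692436-109692774, 17.7 kb into the gene, and the first exon 6 at chr2:109693563-109693909, 18.9 kb into it.

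Most Bdnf RNA was assigned to the first exons 4 and 6. Bdnf-205, which starts at exon 6, had 5.06 TPM in replicate 1 and 6.55 TPM in replicate 2. Bdnf-209, which starts at exon 4, had 5.22 and 3.82 TPM. The leading transcript therefore differed between the libraries, Bdnf-209 in replicate 1 and Bdnf-205 in replicate 2, and by mean Bdnf-205 led with 44.3% ± 7.75 of the gene's TPM, against 34.5% ± 7.77 for Bdnf-209 (SD, n = 2 each). The ratio of Bdnf-205 over Bdnf-209 was 0.969 and 1.71, so the difference between these transcripts was within the spread between the libraries. The deposited bounds of the 2 transcripts overlapped in replicate 1, at 3.50 to 5.60 TPM for Bdnf-205 and 3.63 to 5.90 TPM for Bdnf-209. They did not overlap in replicate 2, at 4.83 to 7.12 TPM and 2.49 to 4.47 TPM. In the second quantification Bdnf-205 was above Bdnf-209 in both libraries, with ratios of 1.20 and 1.53.

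The other Bdnf promoters had low levels. Bdnf-201, from exon 1, had 0.72 and 1.13 TPM, and the 3 transcripts from exon 2 summed to 1.12 and 0.96 TPM, nearly all of it Bdnf-210, with 0.66 TPM in replicate 1 and 0.96 TPM in replicate 2, and Bdnf-207, with 0.46 TPM in replicate 1 and 0 TPM in replicate 2. Transcripts from exon 7 summed to 0.65 and 0.43 TPM and Bdnf-202, from exon 8, had 0.28 and 0.13 TPM; the second quantification put both near 0. Bdnf-211, from exon 5, was listed at 0 in both libraries and both quantifications. Since the shared last exon of 3626 bases makes up 85.0% to 97.8% of every transcript's length, few bases tell the transcripts apart, and the deposited upper bound of Bdnf-211 was 0.366 TPM in each library.

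**Figure D4:**
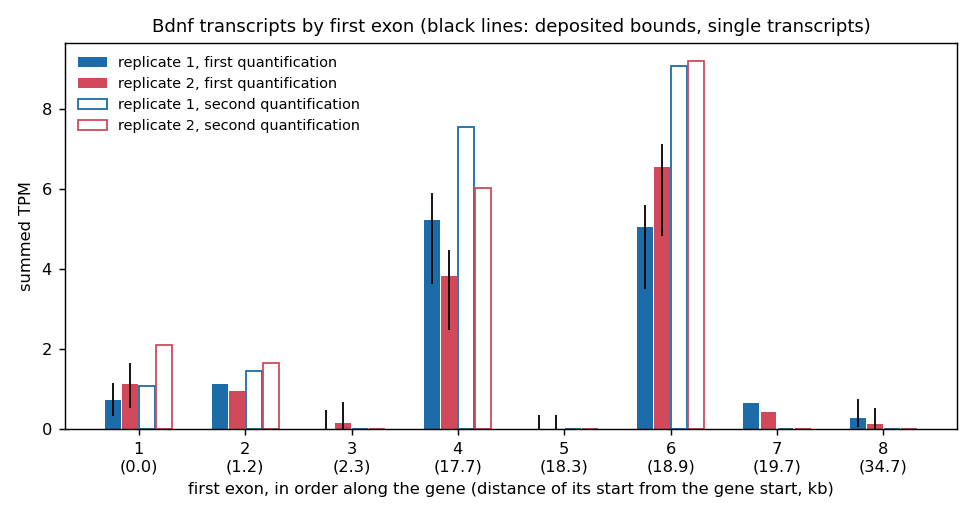
Summed TPM of Bdnf transcripts by first exon, in order along the gene, with the distance of each first exon from the gene start in kb; filled bars are the first and open bars the second quantification, blue replicate 1 and red replicate 2, and black lines are the authors' deposited bounds where 1 transcript starts there. Exons 4 and 6 stand above all others, with their order differing between the libraries in the first quantification.

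The promoter windows of exon 4, a leading start, and of exon 5, which lies next to it and had no assigned reads, are shown from 250 bases before to 50 bases after the annotated start (RefSeq, GRCm38.p6, plus strand). They lie at chr2:109692186-109692485 for Bdnf-209 and chr2:109692777-109693076 for Bdnf-211. Capitals mark the letters TCACGTCA, a variant of the cyclic AMP response element.
Bdnf-209 promoter: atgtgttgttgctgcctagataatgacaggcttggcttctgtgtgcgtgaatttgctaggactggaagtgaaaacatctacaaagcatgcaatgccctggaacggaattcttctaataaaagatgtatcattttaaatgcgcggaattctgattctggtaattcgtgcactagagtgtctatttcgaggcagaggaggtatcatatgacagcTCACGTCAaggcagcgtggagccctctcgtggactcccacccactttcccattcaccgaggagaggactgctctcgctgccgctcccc
Bdnf-211 promoter: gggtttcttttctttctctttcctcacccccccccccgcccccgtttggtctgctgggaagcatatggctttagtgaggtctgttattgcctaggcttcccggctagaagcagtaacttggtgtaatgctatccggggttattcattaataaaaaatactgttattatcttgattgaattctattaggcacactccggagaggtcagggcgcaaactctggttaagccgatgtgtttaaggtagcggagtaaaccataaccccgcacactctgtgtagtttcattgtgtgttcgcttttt

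The motif TCACGTCA, searched on both strands, begins at position -38 from the start of Bdnf-209 and was found in 1 of the 7 Bdnf promoter windows, 6 of which begin at an annotated first exon of the files. The windows of the first exons 2 and 6, the start of Bdnf-205, were not searched. Of all 32851 promoters of 300 bases, 0.441% hold it. The full element TGACGTCA was in none of the Bdnf windows and in 1.79% of all promoters. The shorter ACGTCA, which lies within both, was in the same window and no other of the 7 and in 7.51% of all promoters. These matches describe letters in the windows; binding was not measured.

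Sort1 (ENSMUSG00000068747.14) lies on chr3:108284082-108361511 of mm10, plus strand. Sortilin carries proneurotrophins and BDNF through the secretory route and is also a co-receptor at the surface. Sort1-201, of 825 codons, had 128.44 and 140.95 TPM and held 86.8% ± 2.17 of the gene's TPM (SD, n = 2). Sort1-203, of 858 codons, carries an extra exon of 99 bases near the membrane-spanning part, known as exon 17b in mouse, whose inclusion the RNA-binding protein TDP-43 is known to repress. It had 18.14 and 15.16 TPM. The exon keeps the reading frame and adds 33 codons with no stop in frame. It is given here in capitals, at chr3:108355472-108355570, between the ends of its neighbouring exons in lower case.
Sort1 exon of 99 bases: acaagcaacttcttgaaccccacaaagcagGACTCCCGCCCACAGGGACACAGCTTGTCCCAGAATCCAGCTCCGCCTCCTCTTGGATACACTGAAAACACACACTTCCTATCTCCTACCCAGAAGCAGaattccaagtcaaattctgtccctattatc

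Transcripts with this exon held 12.4% of coding Sort1 TPM in replicate 1 and 9.71% in replicate 2, a mean of 11.0% ± 1.88 (SD, n = 2). The second quantification gave 19.1% and 19.5%. The 2 quantifications thus differed by more than the libraries did. The remaining transcript, the retained intron Sort1-202, had 4.09 and 3.49 TPM.

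Sorcs2 (ENSMUSG00000029093.14; chr5:36017180-36398139, minus strand) encodes SorCS2, a co-receptor with p75 for proBDNF that also binds TrkB. Its long coding transcript Sorcs2-201, of 1159 codons, had 14.65 and 17.07 TPM, which was 93.0% ± 3.21 of the gene's TPM (SD, n = 2). Sorcs2-204 had 0.92 and 0.62 TPM and Sorcs2-202 had 0.58 and 0.23 TPM, both higher in replicate 1, where Sorcs2-201 was lower. Ntf3 (ENSMUSG00000049107.13; chr6:126101412-126166910, minus strand) has its highest transcript in Ntf3-203 in the first quantification, with 4.45 and 4.23 TPM. Ntf3-202 had 0.37 TPM in replicate 1 and 0 TPM in replicate 2, and Ntf3-201 had 0 and 0.17 TPM. The second quantification split the gene otherwise, with 41.0% and 53.1% of its TPM in Ntf3-203 and 59.0% and 40.5% in Ntf3-202, so in replicate 1 the leading Ntf3 transcript differed between the quantifications.

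Ngfr (ENSMUSG00000000120.6; chr11:95568818-95587735, minus strand) has 1 annotated transcript. Its 0.70 and 0.74 TPM were exceeded 190.2-fold by Ntrk2, with an SD of 3.88 over the 2 libraries, and by Sorcs2, the co-receptor gene nearest to it in level, 23.6 ± 0.809-fold (SD, n = 2). In the adult brain p75 is best known from basal forebrain cholinergic neurons, whose cell bodies lie outside the hippocampus. None of the 3 cholinergic markers Chat, Slc18a3 and Slc5a7 was detected, and they summed to 0.22 and 0.11 TPM. Whether this bears on the level of Ngfr was not tested, and which cells gave its reads is not known.

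The members hardly differed between the libraries. None of the 7 was 1.5-fold or more apart, while 2.32% of the 14887 genes with a mean CPM (counts scaled to a fixed library total) of at least 1 were, so a count of 0 among 7 is near that background. On the scale of TMM-normalized CPM, the log2 ratio of replicate 2 over replicate 1 was largest for Ntf3, at -0.18 with a 95% counting interval of -0.53 to 0.17, and for Sorcs2, at 0.14 with an interval of 0.05 to 0.22. The other 5 ratios ran from -0.03 for Bdnf to 0.06 for Ntrk2. The choroid plexus markers were higher in replicate 2, as Sorcs2, Ntrk2, Sort1 and Ngfr were by these small ratios; their part in them was not tested.

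The other genes of the pathway were mostly detected. Of the 63 genes of the list found in the annotation, 56 were detected, and the median of all 63 was 16.8 TPM. For the members, 6 of 7 were detected and the median was 17.0 TPM. Among all protein-coding genes 57.5% were detected, against 88.9% of the list, and their median was 3.15 TPM. Over the detected protein-coding genes alone the median was 14.6 TPM. That value leaves out undetected genes, which the medians of the list and of the members include. No set test was made.

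All 22 adaptors and signalling genes downstream of the Trk receptors were detected, led by Kidins220, a scaffold that Trk receptors phosphorylate (136 ± 2.90 TPM), Grb2 (75.4 ± 4.31 TPM) and Crk (51.9 ± 1.73 TPM), adaptors of the Ras and Rap routes; the phospholipase gene Plcg2 was lowest (1.27 ± 0.0141 TPM; SD, n = 2 each). Of the 6 genes for partners of p75 found in the annotation, 5 were detected, all of them above Ngfr itself. Maged1, which binds p75 in the cell, had 214 ± 9.41 TPM, Bex3, another binding partner, had 121 ± 1.40 TPM, and Lingo1, part of the receptor complex with the Nogo receptor, had 105 ± 3.37 TPM (SD, n = 2 each). Nradd, a relative of p75, was lowest, with 0.78 and 1.08 TPM.

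Of the 14 genes that process the precursors, 10 were detected. Cpe, a carboxypeptidase known to sort proBDNF into the regulated pathway, was highest by far, with 1106 ± 68.6 TPM, ahead of Serpini1, the inhibitor neuroserpin, with 83.6 ± 4.97 TPM, and the convertase gene Pcsk2, with 69.3 ± 3.99 TPM (SD, n = 2 each). The gene of the protease Mmp3 was listed at 0 in both libraries. All 15 genes for Bdnf transcription and transport were detected. The CREB coactivator gene Crtc1 led with 80.4 ± 2.55 TPM, followed by Hap1, whose product helps to transport BDNF, with 74.8 ± 2.16 TPM, and Usf1, a factor known to bind a Bdnf promoter, with 52.7 ± 0.396 TPM (SD, n = 2 each). Usf2 was close to Usf1, with 52.4 ± 0.566 TPM (SD, n = 2). This order depended on the quantification. In the second, Usf2 led with 156.3 and 155.6 TPM, and Hap1, with 115.2 and 117.9 TPM, was above Crtc1, with 111.7 and 108.6 TPM. Rest, a repressor of neuronal genes, was lowest, with 1.75 and 1.66 TPM.

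**Figure D5:**
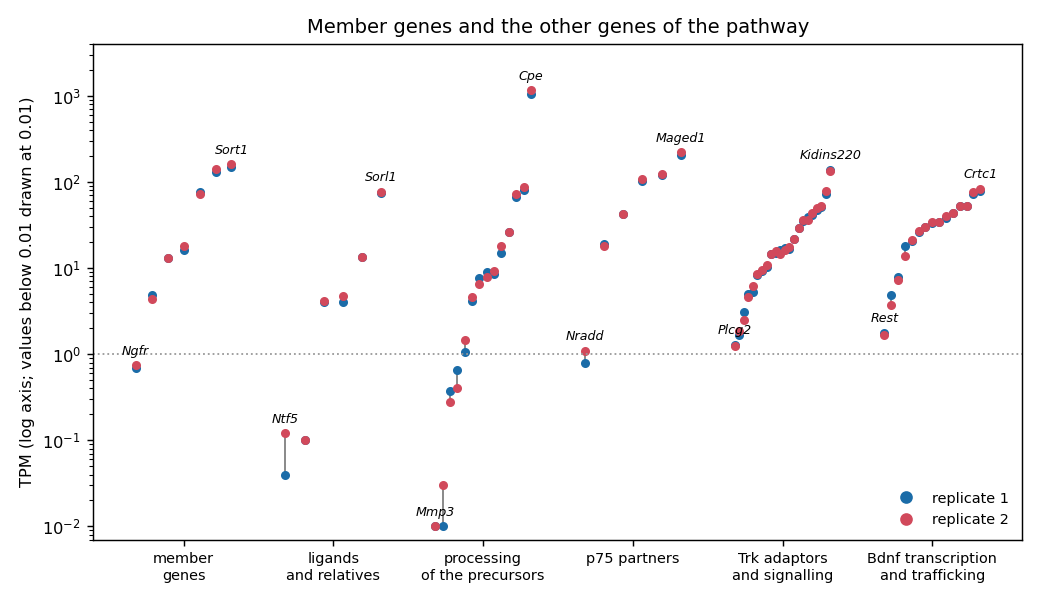
TPM of the member genes and of the 5 groups of other pathway genes on a log axis, ordered within each group; blue is replicate 1, red replicate 2, a grey line joins the libraries, the dotted line is a TPM of 1 and values below 0.01 are drawn at 0.01. The lowest and highest gene of each group is named, from Mmp3 at 0 to Cpe at 1106 TPM on average.

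Of the genes that overlap the members, Gm43099, in Sort1 on the same strand and without shared exons, held the most reads, with 145 and 91 counts, against 25176 and 24538 counts of Sort1. Gm45346, antisense to Bdnf, had 1 and 6 counts, and Gm12523, antisense to Sort1, had 4 and 9 counts; the exons of Gm45346 and Gm12523 were the only ones to meet those of a member. Whether reads were counted by strand is not stated for these tables, so the reads of these 2 genes cannot be told apart from those of the members, whose counts were larger by far. Within introns, Gm9885, antisense to Ntrk3, had 1.82 and 1.83 TPM and C630044B11Rik in Ntrk2 had 1.04 and 1.15 TPM.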

How the data were processed

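Per the labels, total RNA of 300 ng per library was sequenced with ERCC spike-ins in 2 libraries of 1 group. Per the deposited notes, the authors used mm10 and GENCODE M21; for tool names, versions and the level of the deposited bounds, nothing is given in the sources used here. The authors deposited, per the file headers, expected counts, TPM, posterior mean TPM and the percent of each gene's expression held by each transcript (the first quantification, with an RSEM column layout), and estimated counts and TPM of a second quantification with a kallisto layout, which was summed per gene here.

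Levels are the deposited TPM. A transcript was full-length if it shared the stop codon of the gene's longest annotated coding sequence. Named are the members, their transcripts with at least 5% of Ntrk2, Ntrk3 or Bdnf TPM (for other members the 3 highest), the 3 highest and the lowest gene of each pathway group, and overlapping genes; some listed genes are not reported here. The pathway list had 64 names; Ngfrap1, an older name of Bex3, was not matched. Members and lists were chosen with earlier results of these data known.

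Expected counts, rounded, were scaled with the TMM method of edgeR 4.0.16 under R 4.3.3, with a prior count of 0.5; the calculation was tested on simulated data. Intervals are exact binomial ones (Clopper-Pearson, 95%) and cover counting error only. A floor of 3 counts corresponds to 0.0868 and 0.0927 CPM. Neither replicate pairing nor a test between groups was possible. DESeq2 1.42.0 size factors, ERCC scaling and other filters were alternatives. Tables were handled with pandas 2.3.3 in Python 3.11.15. Sequences were read from the GENCODE M21 transcripts, and promoters from RefSeq. The strain's CAST/EiJ alleles were not analysed here.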

Additional observations from a re-analysis of the deposited data

How the results depend on the processing

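No paired analysis was possible because there is only 1 group. The order of the 7 members did not depend on the quantification, but their scale did: their median TPM of 17.0 became 26.6 in the second quantification and 40.9 when TPM was rescaled to protein-coding nuclear genes, with single members 1.46 to 1.68 times and 2.40 to 2.41 times their first value. The full-length share of Ntrk2 (40.2%) was 42.5% in the second quantification and 50.4% in expected counts. That of Ntrk3 (43.5%) was 78.0% in expected counts, where a long last exon weighs most, and 54.5% over complete coding ends. Ntrk2 over Bdnf (10.5) was 11.3 in the second quantification and 16.0 in expected counts; Ntrk3 over Ntf3 (16.1) was 14.7 in the second quantification, 16.7 in posterior mean TPM and 85.0 in expected counts, which are not corrected for length. Without either replicate, the median TPM ran from 16.15 to 17.92, the 2 ratios from 10.1 to 10.9 and from 15.9 to 16.4, the Bdnf-205 share from 38.8% to 49.7% and the number of pathway genes detected from 56 to 57. That number ran from 52 to 58 over the other settings. No member was called 1.5-fold apart under any setting, where 0.359% to 14.0% of genes were; with a stricter filter 5 members were left to compare. Scaling by ERCC shifted the median gene by -0.18 (log2) and put Ntf3, the most different member, at -0.35. Comparisons of the shares with the extra exons of Ntrk3 and Sort1 between quantifications were added after seeing the data. With 2 libraries, Ngfr, at 59 and 57 counts, and the Bdnf promoters other than those of exons 4 and 6 are limited by depth.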
